A study of Mus musculus with 6 samples.

Results

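Interferon-high B cells are B cells that carry transcripts of several interferon-stimulated genes at once. They were taken from 3 single-cell RNA libraries of mouse lymph node by a gate on raw counts of unique molecular identifiers (UMIs, each a captured RNA molecule). A B cell had at least 2 UMIs of Cd79a and 1 of Ms4a1, no UMI of Cd3e and fewer than 5 of Jchain, and it was a member where at least 3 of 6 genes (Ifit1, Ifit3, Isg15, Irf7, Usp18 and Rtp4) had a UMI. The gate held 451 of 13292 B cells (3.39%), which were 1.58% of 28538 kept cells of this fraction, in a series of 53259 kept cells in 6 libraries. The YUMMER1.7 library gave 126 members and 2359 other B cells, the YUMM1.7 library 125 and 3731, and the naive library 200 and 6751.

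The libraries came from C57Bl/6 mice that bore YUMMER1.7 melanoma, bore YUMM1.7 melanoma or were free of tumour (naive). YUMMER1.7 was made by ultraviolet irradiation of the mouse melanoma line YUMM1.7 and carries more mutations, which makes it the more immunogenic. Each library pools inguinal and axillary nodes from several mice, and its cells were captured with a droplet kit that reads the 3′ ends of transcripts. The labels call this fraction depleted of CD45, a protein on the surface of leukocytes, whereas B cells, which are leukocytes, were 36.1%, 44.4% and 53.6% of them in the YUMMER1.7, YUMM1.7 and naive libraries. Each arm is 1 library, so no test between arms was possible. Intervals are given at 95%, and they hold counting error but not the spread between mice. Those of CPM ratios count each UMI as independent, so they also leave out the spread between cells.

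Type I interferon binds a receptor on nearly every cell and acts through transcription factors that bind a short DNA element in the promoters of interferon-stimulated genes. The products of these genes sense viral nucleic acid, degrade it, block translation and trap virions, and some of them, such as USP18, shut the receptor off again. Interferon gamma binds another receptor and induces an overlapping set that includes the GBP and IRG families of GTPases.

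Promoters of 8 genes that were high in the members are shown, because they hold letters of the interferon element. Each run is the 200 bases directly before the start site, 5′ to 3′ on the strand of the gene, from RefSeq promoter windows on GRCm38.p6. Capitals mark the letters GAAANNGAAA on either strand (TTTCNNTTTC when read on the other), and adjoining matches that overlap form 1 run of capitals.
Isg15: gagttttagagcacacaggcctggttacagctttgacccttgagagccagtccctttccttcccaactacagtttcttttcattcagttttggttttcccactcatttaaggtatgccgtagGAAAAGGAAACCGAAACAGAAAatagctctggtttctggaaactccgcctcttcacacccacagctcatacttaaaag
Ifit3: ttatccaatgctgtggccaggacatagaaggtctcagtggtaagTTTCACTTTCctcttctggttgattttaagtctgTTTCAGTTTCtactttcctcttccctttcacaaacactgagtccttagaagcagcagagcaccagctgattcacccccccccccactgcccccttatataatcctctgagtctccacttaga
Ifit3b: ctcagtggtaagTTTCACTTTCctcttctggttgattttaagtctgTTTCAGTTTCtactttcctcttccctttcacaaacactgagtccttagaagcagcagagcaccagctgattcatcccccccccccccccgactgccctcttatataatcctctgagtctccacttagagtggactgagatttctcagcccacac
Rsad2: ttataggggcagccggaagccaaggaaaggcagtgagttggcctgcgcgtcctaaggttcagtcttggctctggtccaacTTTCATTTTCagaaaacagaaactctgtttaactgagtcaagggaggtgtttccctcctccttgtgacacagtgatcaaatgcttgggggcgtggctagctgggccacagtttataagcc
Oas3: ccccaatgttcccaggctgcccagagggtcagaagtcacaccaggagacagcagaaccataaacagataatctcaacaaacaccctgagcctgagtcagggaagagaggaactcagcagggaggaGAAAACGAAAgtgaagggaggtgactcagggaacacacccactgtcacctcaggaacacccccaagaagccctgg
Oas1a: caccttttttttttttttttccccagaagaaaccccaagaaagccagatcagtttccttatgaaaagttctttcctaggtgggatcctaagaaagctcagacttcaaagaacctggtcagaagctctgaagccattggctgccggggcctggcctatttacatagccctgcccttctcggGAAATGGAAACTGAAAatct
Slfn5: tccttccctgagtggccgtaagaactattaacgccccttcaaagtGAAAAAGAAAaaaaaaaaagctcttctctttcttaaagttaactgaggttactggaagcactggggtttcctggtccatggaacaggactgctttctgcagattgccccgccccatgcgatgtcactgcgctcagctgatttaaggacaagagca
Bst2: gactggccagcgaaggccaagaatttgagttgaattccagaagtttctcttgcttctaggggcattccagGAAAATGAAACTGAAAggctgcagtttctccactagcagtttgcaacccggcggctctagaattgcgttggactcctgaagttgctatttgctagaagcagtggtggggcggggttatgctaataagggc
The window of Isg15, an ubiquitin-like modifier and one of the genes of the gate, is at chr4:156200819-156201018 on the minus strand and holds 3 overlapping matches, of which the first begins 78 bases before the start. The windows of Ifit3, a protein of the complex that binds foreign RNA (chr19:34583329-34583528, plus strand), and of its close copy Ifit3b (chr19:34607757-34607956, plus strand) each hold 2 matches. Rsad2, which encodes viperin (chr12:26456453-26456652, minus strand), Oas3 (chr5:120777660-120777859, minus strand) and Slfn5 (chr11:82951902-82952101, plus strand) each hold 1, at 120, 75 and 155 bases before the start. Oas1a (chr5:120907526-120907725, minus strand) and Bst2, which encodes the virion trap tetherin (chr8:71537473-71537672, minus strand), each hold 2 that overlap. Over whole windows of 300 bases, 250 before and 50 after the start, the letters were found in 1079 of 27025 genes (3.99%) and in 328 of 8144 matched genes of those compared below (4.03%). They were in 39 of the 113 matched genes that were at least 2 times higher in the members of all 3 libraries (34.5%), a set that includes genes of the gate, and in 2 of the 10 matched genes at most 0.5 times in all 3 (20%). By list, 20 of 53 matched antiviral effectors held them (37.7%), 10 of 17 nucleic acid sensors (58.8%), 10 of 11 interferon gamma GTPases (90.9%) and 5 of 18 genes of MHC class I presentation (27.8%), against 1 of 10 B cell identity genes and 0 of 7 genes of MHC class II presentation. A match is a description of the letters and was not tested as a binding site, and the window of Irf7 holds none.

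The 3 libraries held 67709285, 76861915 and 78240566 UMIs in the YUMMER1.7, YUMM1.7 and naive arms, and no pair of libraries in the series shared more than 0.421% of its cell barcodes. The members were deeper than other B cells, with medians of 7769, 4421 and 4496.5 UMIs per cell, against 5077, 4009 and 3791 in other B cells. Transcripts of several other cell types differed between members and other B cells, and their part in the results was not tested. At least 2 UMIs of dendritic cell markers were found in 14.3%, 12% and 3.5% of members of the YUMMER1.7, YUMM1.7 and naive libraries, against 4.03%, 3.06% and 1.64% of other B cells, and at least 2 of monocyte and macrophage markers in 12.7%, 7.2% and 5.5%, against 3.43%, 1.88% and 1.33%. Plasmacytoid dendritic cell markers summed to 171, 143 and 53.6 CPM in members, against 24.3, 21.4 and 25 CPM in other B cells, and T cell markers to 48.3, 66.6 and 226 CPM, against 33.8, 54.1 and 101 CPM. The 7 stromal markers summed to 1651, 729 and 359 CPM in members, against 574, 501 and 359 CPM in other B cells, where CPM is the UMIs of a gene or list per 1000000 UMIs of the same cells in the same library. Pecam1, which B cells express themselves, supplied 58.6%, 70.5% and 98.7% of these UMIs in other B cells. Not all markers were higher in members. Neutrophil markers summed to 7.63, 10.8 and 1.53 CPM, against 12.7, 20.1 and 3.29 CPM. NK cell markers summed to 15.3, 70.5 and 13.8 CPM, against 9.63, 27.2 and 31.6 CPM. Erythroid and platelet markers summed to 8.26, 7.84 and 15.3 CPM, against 161, 2.41 and 350 CPM. The members without at least 2 UMIs of T cell, NK cell, monocyte, neutrophil, dendritic or plasmacytoid dendritic cell markers and without a high doublet score numbered 80, 87 and 158, or 325 of 451, and are called stricter members. Within a library they are compared with other B cells filtered the same way. Ratios between arms in other B cells are those of all other B cells, without this filter. The stromal markers of stricter members summed to 516, 429 and 379 CPM, against 535, 460 and 370.0 CPM. Plasmacytoid dendritic cell markers then summed to 5.06, 7.15 and 3.51 CPM, against 4.56, 4.05 and 3.8 CPM, and T cell markers to 11.8, 23.8 and 19.9 CPM, against 16, 25.3 and 40.2 CPM, in groups filtered on these markers. Their median depths were 5791.5, 4043 and 4290.5 UMIs, against 4939.5, 3923.5 and 3688. This filter was chosen after the data were seen.

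The members were chosen by these genes, so their values are a description. They summed to 789, 1153 and 1409 CPM in members of the YUMMER1.7, YUMM1.7 and naive libraries, against 68.8, 60.5 and 60.6 CPM in other B cells. Ifit3 stood at 173, 330 and 475 CPM in members, against 6.57, 7.80 and 8.73 CPM in other B cells. Isg15 stood at 213, 286 and 302 CPM, against 17.2, 18.0 and 11.6 CPM. Usp18, the protease that removes ISG15 and blocks the receptor, stood at 109, 181 and 192 CPM, against 9.76, 9.42 and 8.89 CPM. Irf7, the transcription factor that drives late interferon genes, stood at 138, 136 and 161 CPM in stricter members, against 17.8, 12.8 and 13.8 CPM. Ifit3, Isg15 and Usp18 were lowest in the YUMMER1.7 library and highest in the naive one in all members. Irf7, given here for stricter members only, was nearly level between YUMMER1.7 and YUMM1.7, and Ifit1 and Rtp4 are not shown singly. In stricter members the genes of the gate summed to 1066, 1722 and 1664 CPM, against 72.8, 56.4 and 59.6 CPM, so YUMMER1.7 stayed lowest and the order of YUMM1.7 and naive turned round. Ifit3 then stood at 288, 593 and 585 CPM and Usp18 at 154, 293 and 222 CPM. Cd79a, the signalling chain of the B cell receptor, stood at 1642, 1406 and 1545 CPM in stricter members, against 1684, 1527 and 1565 CPM, but every cell of both groups had to pass it. In all members Cd79a was lower, at 1016, 931 and 1388 CPM, against 1527, 1411 and 1474 CPM in other B cells.

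The threshold cut through a gradient. Just inside it, 62, 57 and 87 members of the YUMMER1.7, YUMM1.7 and naive libraries had exactly 3 of the 6 genes, and just outside it 176, 144 and 271 B cells had exactly 2. In all B cells, without the stricter filter, antiviral effectors, a list of 65 genes that shares none with the gate, made up 112, 126 and 119 of every 10000 UMIs in cells with 3 genes detected and 84.8, 96.9 and 99.1 in cells with 2. With none detected they made up 61.9, 58.3 and 60.8, and with all 6 detected 192, 191 and 281. The level rose at each step in each library, and the naive library stood above the other two from 4 detected genes upward.

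**Figure D1:**
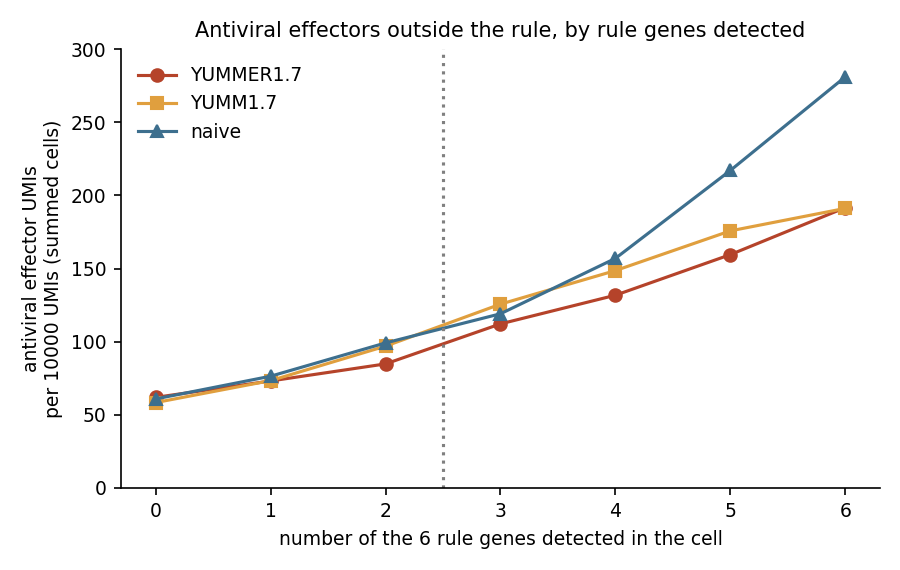
UMIs of the antiviral effector list per 10000 UMIs (vertical axis), summed over the B cells of each CD45-depleted library that had 0 to 6 of the gate genes detected (horizontal axis); the dotted line is the threshold of 3. Every line climbs without a break at the threshold, and the naive line is highest at 6 genes, at 281.

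The first comparison asks whether interferon-high cells take a larger share of B cells in nodes of tumour-bearing mice. They were 5.07% (4.24 to 6.01) of B cells in the YUMMER1.7 library, 3.24% (2.71 to 3.85) in that of YUMM1.7 and 2.88% (2.5 to 3.30) in that of naive mice, by exact Clopper-Pearson intervals. The ratio was 1.76 (1.40 to 2.21) for YUMMER1.7 over naive, 1.13 (0.894 to 1.42) for YUMM1.7 over naive and 1.56 (1.21 to 2.02) for YUMMER1.7 over YUMM1.7. B cells of the YUMMER1.7 library were also the deepest, and more UMIs give more chances to detect 3 genes. Every kept cell with at least 2000 UMIs was then thinned to 2000 UMIs, and the whole gate, with its B cell genes, was applied again. The B cells were thus not the same set. Of those at full depth, 58, 100 and 184 were too shallow, and others no longer passed the B cell genes. Members were 23 of 1644 B cells (1.40%, 0.889 to 2.09), 39 of 2580 (1.51%, 1.08 to 2.06) and 63 of 4846 (1.30%, 1.0 to 1.66). The ratios were 1.08 (0.637 to 1.76), 1.16 (0.759 to 1.76) and 0.926 (0.528 to 1.59). At equal depth a difference between arms was therefore not detectable in these numbers of cells. T cells, which also respond to interferon, had at least 3 of the 6 genes in 14.1%, 8.87% and 10.4% of cells at full depth (medians of 9876, 6026.5 and 6106 UMIs) and in 3.82%, 1.62% and 2.29% at 2000 UMIs, on as few as 6 cells in the YUMMER1.7 library.

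**Figure D2:**
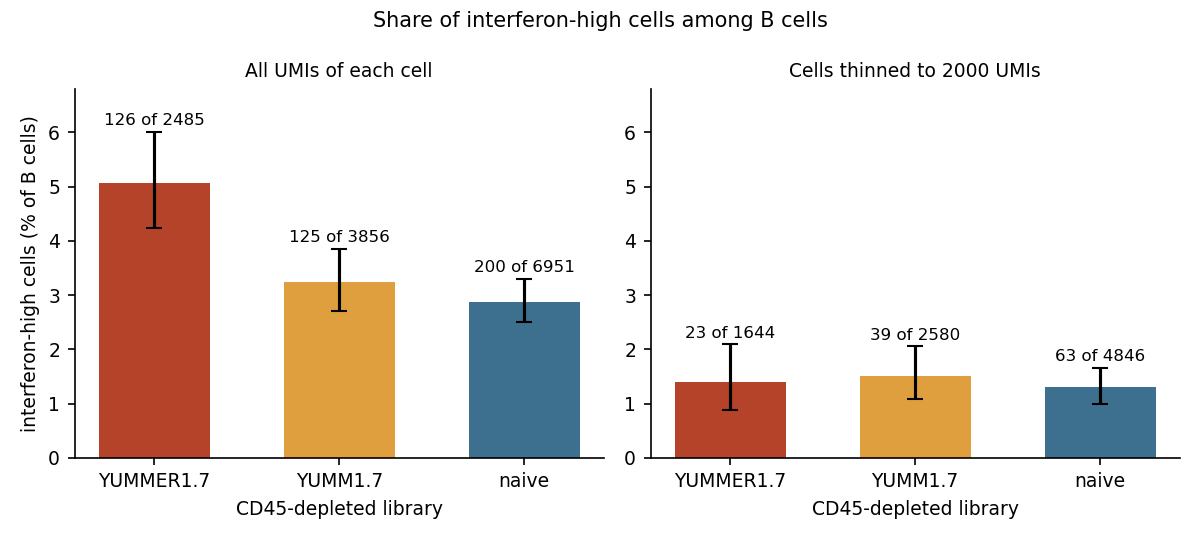
Interferon-high cells as a percentage of B cells in the 3 CD45-depleted libraries, at the full depth of each cell (left) and with cells thinned to 2000 UMIs (right); error bars are 95% Clopper-Pearson intervals and the numbers are members of B cells. The YUMMER1.7 bar is highest at full depth at 5.07%, and the intervals of all 3 bars overlap after thinning.

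The second comparison sets the members against other B cells of the same library. It describes what the gate selected, because every gene in it comes from the contrast that chose the cells. Of 10895 genes with at least 50 UMIs over both groups in each library, 145 were at least 2 times higher in the members of all 3 libraries (1.33%) and 19 were at most 0.5 times (0.174%). In a single library, at least 2 times higher were 8.09%, 8.99% and 3.08% of them in the YUMMER1.7, YUMM1.7 and naive libraries, and at most 0.5 times 3.38%, 4.67% and 4.7%. In stricter members 116 of 9692 were higher (1.2%) and 22 lower (0.227%). Of 65 antiviral effectors, 61 passed the low-count filter in all members, 34 were higher in all 3 libraries and 0 were lower, and in stricter members 36 of 55 were higher. Their median log2 ratio was 1.34, 1.7 and 1.96 in the YUMMER1.7, YUMM1.7 and naive libraries, against −0.02, −0.01 and −0.06 over all genes, and 1.5, 2.13 and 1.91 in stricter members, against −0.05, −0.13 and −0.08.

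Effectors that act on viral RNA were among the highest. Mx1, a dynamin-like GTPase that traps viral nucleocapsids, stood at 86.4, 131 and 146 CPM in members of the YUMMER1.7, YUMM1.7 and naive libraries, against 7.09, 7.85 and 7.78 CPM in other B cells, at log2 ratios of 3.61, 4.06 and 4.23. Ifit2, which binds foreign RNA, stood at 92.2, 162 and 156 CPM, against 8.07, 5.29 and 7.09 CPM. Both were more than 10 times higher in every library, and in stricter members Mx1 had log2 ratios of 4.26, 5.26 and 4.88 and Ifit2 of 4.01, 5.21 and 4.76. The oligoadenylate synthetases, which detect double-stranded RNA and switch on RNase L, were higher too. Oas3 stood at 34.3, 36.3 and 49.0 CPM, against 4.03, 3.72 and 4.34 CPM, and Oas1a at 26.1, 36.3 and 35.2 CPM, against 5.46, 4.08 and 4.37 CPM. In stricter members Oas3 had log2 ratios of 3.58, 4.04 and 3.96 and Oas1a stood at 37.1, 38.1 and 39.7 CPM, against 6.12, 4.41 and 4.25 CPM. Oas2 and the catalytically inactive relative Oasl1 were also higher in every library, at log2 ratios of 3.27, 3.81 and 3.11, and of 2.24, 2.69 and 2.61, in stricter members.

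Rsad2 (viperin, which makes a chain-terminating nucleotide) stood at 38.1, 57.8 and 95 CPM in members, against 1.43, 2.30 and 2.66 CPM in other B cells, and rested on 60, 59 and 124 UMIs. Ifit3b stood at 37.5, 59.8 and 99.6 CPM, against 1.24, 1.26 and 1.27 CPM. Ifit3b and the gate gene Ifit3 are near-identical copies, so the split of reads between them is uncertain, and Ifit3b is not fully independent of the gate. Both Rsad2 and Ifit3b had fewer than 50 UMIs in some library of stricter cells and were not compared there. Slfn5, a member of the interferon-induced Schlafen family, had more UMIs and stood at 292, 488 and 509 CPM in members, against 49.8, 46.7 and 43.8 CPM. In stricter members it stood at 403, 779 and 623 CPM, against 49.8, 47.2 and 45.6 CPM. Bst2 stood at 572, 507 and 412 CPM in all members, against 104, 81.2 and 82.0 CPM, and at 248, 293 and 374 CPM in stricter members, against 81.7, 63.8 and 70.6 CPM. The order of the arms for Bst2 thus turned round when cells with transcripts of other leukocytes were left out.

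Ifitm3, which blocks virus entry at endosomes, showed the same dependence more strongly. It stood at 1269.8, 1121 and 127 CPM in all members of the YUMMER1.7, YUMM1.7 and naive libraries, against 113, 62.2 and 9.08 CPM in other B cells, and a single member of the YUMMER1.7 library held 401 of the 1998 UMIs. In stricter members it stood at 105, 224 and 157 CPM, against 75.0, 40.0 and 6.47 CPM, at log2 ratios of 0.48, 2.49 and 4.6. Its level in other B cells was highest in the YUMMER1.7 library and lowest in the naive one. Ifi44 stood at 46.4, 58.8 and 13.8 CPM in all members and had 0, 7 and 10 UMIs in stricter members. Phf11d, an interferon-induced PHD finger gene, stood at 38.8, 38.2 and 12.3 CPM, against 3.64, 2.93 and 1.17 CPM, and had 8, 9 and 9 UMIs in stricter members. Its neighbour Phf11b stood at 191, 305 and 236 CPM in stricter members, against 40.7, 34.9 and 36.5 CPM. Lgals3bp, a secreted glycoprotein, stood at 68.0, 50.9 and 34.5 CPM in all members, against 10.3, 6.49 and 5.76 CPM, and at 32.1, 26.2 and 35.1 CPM in stricter members, against 7.38, 5.13 and 4.82 CPM.

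**Figure D3:**
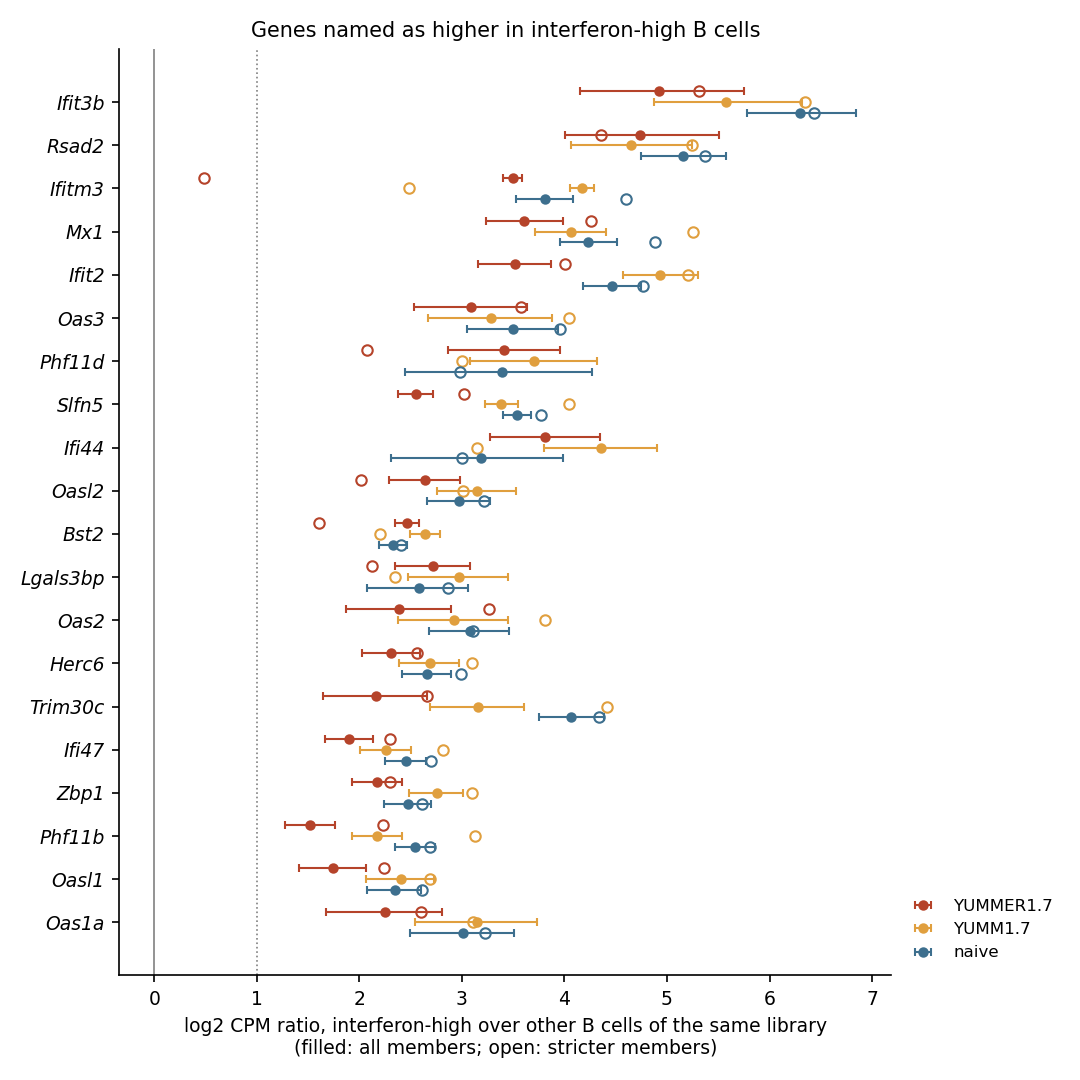
log2 ratio of CPM in interferon-high over other B cells of the same library (horizontal axis) for the genes named as highest in all or in stricter members; filled points with 95% counting intervals are all members and open points stricter members. Mx1, Ifit2, Oas3 and Slfn5 lie to the right of the dotted 2-fold line in all 3 libraries, whereas Ifitm3 of the YUMMER1.7 library lies at 0.48 in stricter members.

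Herc6, the mouse ligase that joins ISG15 to proteins, stood at 115, 169 and 173 CPM in stricter members of the YUMMER1.7, YUMM1.7 and naive libraries, against 19.4, 19.7 and 21.7 CPM. Trim30a, a TRIM family gene, stood in stricter members at 651, 905 and 915 CPM, against 173, 161 and 179 CPM, and its neighbour Trim30c at 48.9, 131 and 134 CPM, against 7.77, 6.15 and 6.64 CPM. Trim30 genes lie close together and resemble each other, so the split of reads between them is uncertain. Trim5, a restriction factor of the same cluster, stood at 31.8, 28.4 and 42.9 CPM in all members, against 67.1, 68.4 and 66.5 CPM in other B cells. Its log2 ratio in stricter members was −1.21 (−1.95 to −0.55), −0.85 (−1.64 to −0.16) and −0.73 (−1.25 to −0.25). Of the feedback list, 5 of 11 compared genes were higher in stricter members of all 3 libraries, against 1.2% of all genes compared there. They were Socs1, which inhibits receptor kinases, Ube2l6, Herc6 and the gate genes Usp18 and Isg15. The cells were chosen by Usp18 and Isg15, so these genes say nothing further.

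Sensors of nucleic acid were higher as a group, at 10 of 20 compared genes in all members and 11 of 16 in stricter members. Of all compared genes, 1.33% and 1.2% were higher. Zbp1, which binds Z-form nucleic acid, stood at 152, 202 and 167 CPM in stricter members, against 30.8, 23.6 and 27.4 CPM in other B cells. Ddx58, which encodes the RNA sensor RIG-I, stood in stricter members at 165, 281 and 300.3 CPM, against 62.1, 63.1 and 64.9 CPM. Ifih1, which encodes the RNA sensor MDA5, stood in stricter members at 16.9, 35.7 and 52.6 CPM, against 4.47, 3.25 and 3.64 CPM. Eif2ak2, which encodes the kinase PKR that halts translation on double-stranded RNA, stood in stricter members at 152, 233 and 266 CPM, against 39.4, 35.6 and 36.1 CPM. Tlr7, the endosomal receptor for single-stranded RNA, stood in stricter members at 101, 145 and 120.4 CPM, against 33.6, 30.2 and 27.7 CPM. Ddx58, Ifih1 and Eif2ak2 were lowest in stricter members of the YUMMER1.7 library and highest in those of the naive library. Their levels in other B cells varied little between arms. Zbp1 and Tlr7 were also lowest in YUMMER1.7 but highest in YUMM1.7. The whole sensor list summed to 3735, 5193 and 5158 CPM in stricter members. These values are at full depth, where stricter members of the YUMMER1.7 library were the deepest. Stat2, a factor that carries the signal, stood at 128, 186 and 158 CPM in stricter members, against 45.5, 45.3 and 42.0 CPM, and the MHC class I activator Nlrc5 had log2 ratios of 1.24, 1.87 and 1.80.

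GTPases known from the response to interferon gamma were higher for 11 of 14 compared genes in all members and 8 of 12 in stricter members. The shares of all compared genes were 1.33% and 1.2%. Ifi47, an IRG GTPase, stood at 184, 250.1 and 229 CPM in stricter members, against 37.5, 35.4 and 35.3 CPM, and Irgm1, which regulates autophagy, at 121, 136 and 143 CPM, against 32.9, 22.1 and 25.1 CPM. Gbp7 stood in stricter members at 42.2, 92.9 and 67.8 CPM, against 13.8, 13.2 and 13.8 CPM. Of MHC class I presentation genes, 2 of 20 were higher in all members and 1 of 20, H2-T24, in stricter members. Counts this small in a short list lie near the shares of all compared genes and are a description only. H2-K1, a classical class I heavy chain, stood at 1245, 1344 and 1578 CPM in stricter members, against 1203, 1129 and 1258 CPM, and B2m, the light chain, at 1523, 1296 and 1400.0 CPM, against 1339, 1046 and 1126 CPM. In all members B2m stood at 2343, 1936 and 1389.5 CPM, against 1355, 1101 and 1162 CPM, and 1 cell of the YUMMER1.7 library alone held 338 of its UMIs.

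The 19 interferon ligand genes had 1, 0 and 3 UMIs in all members of the YUMMER1.7, YUMM1.7 and naive libraries, too few to compare, and Ifnb1 had none in members or other B cells. None of 8 compared interferon receptor and kinase genes was past the 2-fold line in all 3 libraries, against 1.33% higher and 0.174% lower of all compared genes. Ifnar1, a chain of the type I receptor, stood at 25.3, 40.5 and 45.6 CPM in stricter members, against 42.5, 48.5 and 48.9 CPM.

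Of all 10895 compared genes, 1.33% were at least 2 times higher and 0.174% at most 0.5 times in all members of all 3 libraries. Counts of 0 in short lists lie near those shares, so those for B cell identity and maturation are a description only. None of 14 identity genes, 10 genes of MHC class II presentation, 10 follicular genes, 8 compared genes of BAFF signalling and survival or 19 compared early activation genes was past it in every library, in either direction. Of 8 compared germinal centre genes, Rgs13, a regulator of G protein signalling, was at most 0.5 times in each, on 3, 0 and 4 UMIs in members, against 9.37, 6.54 and 6.52 CPM in other B cells, and had no UMI in stricter members. It was chosen after its values were seen. In all members of single libraries, early activation genes were at least 2 times higher in 3, 4 and 0 cases and at most 0.5 times in 2, 2 and 0. Of all compared genes, 8.09%, 8.99% and 3.08% were at least 2 times higher in single libraries, and 3.38%, 4.67% and 4.7% at most 0.5 times. Median log2 ratios of the MHC class II list were −0.63, −0.57 and −0.11 in all members of the YUMMER1.7, YUMM1.7 and naive libraries and −0.11, −0.06 and −0.11 in stricter members. Those of the identity list were −0.52, −0.58 and −0.13 in all members and 0.05, −0.15 and −0.04 in stricter members. Pax5, the factor that fixes B cell identity, stood at 761, 693 and 761 CPM in stricter members, against 735, 757 and 758 CPM. Cd74, the invariant chain of class II, stood in stricter members at 9335, 8410 and 8191 CPM, against 9657, 8565 and 8724 CPM. Plac8, a gene of the marginal zone and B1 list, stood at 1063, 922 and 1329.9 CPM in stricter members, against 482, 452 and 433 CPM. It was the 1 gene of 12 compared on that list past the 2-fold line in stricter members, against 1.2% of all genes compared there. In all members 0 of 12 were past it in all 3 libraries.

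**Figure D4:**
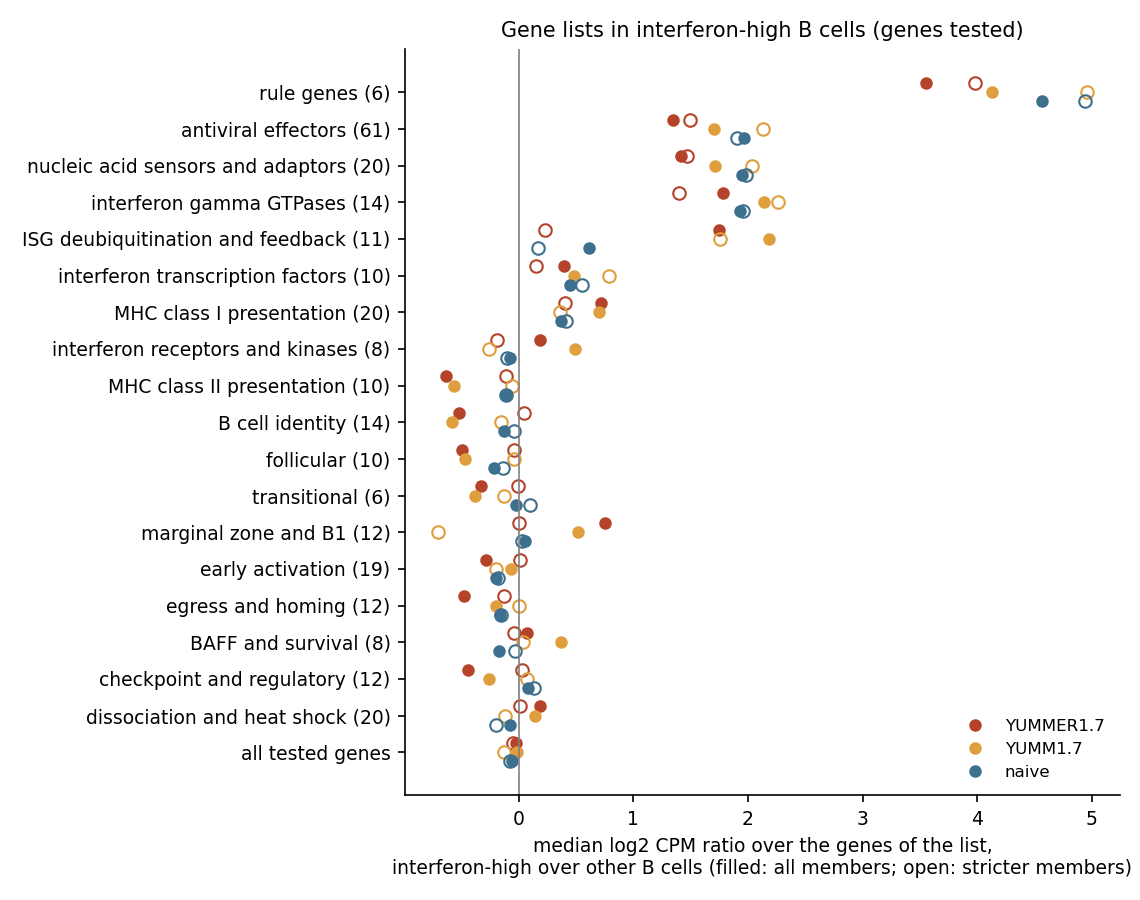
Median log2 CPM ratio of interferon-high over other B cells for each gene list (number of genes compared in brackets), per library; filled points are all members and open points stricter members. Gate genes, effectors, sensors and GTPases lie above 1, and for class II and identity genes the filled points of the tumour libraries lie left of the open ones.

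Genes named as lowest in all members had smaller differences, and most named from all members were not named from stricter ones. Fcer2a, which encodes the follicular B cell marker CD23, stood at 156, 188 and 229 CPM in all members, against 290.1, 331 and 322 CPM in other B cells, and its log2 ratios in stricter members were −0.43, −0.31 and −0.56. Cr2, the complement receptor CD21, stood at 413, 300.2 and 318 CPM in stricter members, against 414, 444 and 413 CPM. Cxcr4, the receptor that guides cells to the dark zone and to bone marrow, stood at 74.2, 114 and 154 CPM in stricter members, against 128, 149.6 and 239 CPM. Gpr183, which guides B cells to the outer follicle, stood at 555, 588 and 557 CPM in stricter members, against 599, 597 and 705 CPM. Fyn, a Src family kinase, stood in stricter members at 82.7, 95.3 and 192 CPM, against 156, 176 and 254 CPM. Agbl1 was the only named gene at most 0.5 times in all 3 libraries, and it rested on 17, 0 and 5 UMIs in members. Pxdc1, Pgap1, Tspan13, Satb1, Slc16a10, Mir142hg and Jund completed the named genes, of which Satb1, a chromatin organiser, stood at 368, 512 and 777 CPM in stricter members, against 571, 643 and 919.9 CPM.

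The third comparison asks whether the interferon programme of the members differed between arms. Antiviral effectors summed to 13325, 14955 and 15902 CPM in all members of the YUMMER1.7, YUMM1.7 and naive libraries, against 6705, 6318 and 6577 CPM in other B cells. In stricter members they summed to 14639, 18315 and 17679.6 CPM, against 6884, 6349.5 and 6614 CPM. The log2 ratio of members of YUMMER1.7 over naive was −0.26 (−0.28 to −0.23) in all members and −0.27 (−0.31 to −0.23) in stricter members. That of YUMM1.7 over naive was −0.09 (−0.12 to −0.06) in all members but 0.05 (0.01 to 0.09) in stricter members, and −0.18 in all and −0.20 in stricter members once thinned to 2000 UMIs, so its direction depends on these choices. YUMMER1.7 over YUMM1.7 was −0.17 (−0.20 to −0.14) in all and −0.32 (−0.37 to −0.28) in stricter members, and −0.05 (−0.18 to 0.07) when stricter members were also thinned to 2000 UMIs. The ratios of the same list were 0.03, −0.06 and 0.09 in other B cells for YUMMER1.7 over naive, YUMM1.7 over naive and YUMMER1.7 over YUMM1.7, and 0.06, −0.10 and 0.17 in T cells. Members of the YUMMER1.7 library were the deepest, and the part of depth in these ratios was not tested beyond thinning. With cells thinned to 2000 UMIs the ratio of YUMMER1.7 over naive was −0.28 (−0.39 to −0.18) in all members, on 23 and 63 cells. In stricter members it was then −0.25 (−0.36 to −0.13).

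The sensor list of YUMMER1.7 over naive was −0.47 (−0.54 to −0.39) and the GTPase list −0.47 (−0.64 to −0.30) in stricter members. They were −0.07 and 0.03 in other B cells without the filter, and −0.43 and −0.39 in T cells. Both lists were thus lower in T cells of the YUMMER1.7 library as well, whose median depth was the highest of the 3, and the part of depth in this was not tested. In all members the lists of YUMMER1.7 over naive were −0.76 (−0.82 to −0.70) and −0.04 (−0.15 to 0.08). For YUMM1.7 over naive they were 0.01 (−0.06 to 0.08) and 0.13 (−0.04 to 0.29) in stricter members, and −0.37 (−0.43 to −0.31) and 0.39 (0.27 to 0.50) in all members, so both lists depend on the filter. Both tumour libraries are set against the same naive library.

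In all members, 11.3% and 2.77% of 7066 compared genes were at least 2 times and at most 0.5 times in YUMMER1.7 over naive, 8.71% and 1.39% of 6208 in YUMM1.7 over naive, and 3.16% and 1.66% of 6983 in YUMMER1.7 over YUMM1.7. In stricter members these shares were 0.467% and 1.94% of 4286, and 0.332% and 2.22% of 3918. The genes named as highest in all members of both tumour libraries were Igfbp7, Ccl20, Glycam1, Clu and Sparc, of which Igfbp7, Glycam1 and Sparc are known from endothelial or stromal cells. Igfbp7 had 2129, 670 and 0 UMIs in all members of the YUMMER1.7, YUMM1.7 and naive libraries, of which a single YUMMER1.7 cell held 648, and 15, 6 and 0 UMIs in stricter members. Glycam1, a ligand on high endothelial venules, had 2802, 1519 and 4 UMIs, with 922 and 872 in single YUMMER1.7 and YUMM1.7 cells. Other B cells followed the same order, with Igfbp7 at 98.2, 50.7 and 1.77 CPM. Chemokines summed to 1694, 1578 and 65.9 CPM in all members and to 224, 136 and 45.6 CPM in stricter members, against 228, 135 and 37.4 CPM in other B cells under the same filter. Cxcl10, an interferon-induced chemokine, had 167, 483 and 9 UMIs in all members, 275 of them in a single YUMM1.7 cell.

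In stricter members, early activation genes were lower in both tumour arms as a summed list. The log2 ratio was −0.48 (−0.58 to −0.38) for YUMMER1.7 over naive and −0.60 (−0.72 to −0.49) for YUMM1.7 over naive. In other B cells, here and below without the filter, it was −0.46 and −0.46. Junb, a subunit of the immediate early factor AP-1, stood at 211, 286 and 601 CPM in stricter members of the YUMMER1.7, YUMM1.7 and naive libraries, and its log2 ratio over naive was −1.51 and −1.07, against −0.99 and −0.85 in other B cells. Cd86, a co-stimulatory ligand, stood at 251, 253 and 492 CPM, with ratios of −0.97 and −0.96, against −0.79 and −0.67 in other B cells. Pde4b, a cyclic AMP phosphodiesterase, stood at 319, 300.2 and 657 CPM, with ratios of −1.04 and −1.13, against −0.78 and −0.52. Dennd4a, which activates Rab GTPases, had ratios of −0.85 and −0.87, against −0.88 and −0.66. Gadd45b, a stress-induced gene, stood at 30.4, 16.7 and 99.3 CPM in stricter members, with ratios of −1.71 (−2.53 to −0.96) and −2.57 (−3.93 to −1.47). It was at −0.39 and −0.18 in other B cells, which were not filtered, so the 2 groups are not alike in this. In all members Gadd45b stood at 104, 125 and 92.7 CPM, so its order depends on the cells left out, and it rested on 18, 7 and 85 UMIs in stricter members.

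Ccl21a, a chemokine of stromal cells named in all members of YUMMER1.7 over YUMM1.7, had 1040 UMIs in the YUMMER1.7, 24 in the YUMM1.7 and 2 in the naive library, and a single YUMMER1.7 cell held 613 of them.

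Higher in stricter members of both tumour libraries were Slpi, a secreted protease inhibitor, at 115, 202 and 53.8 CPM, and Cd22, an inhibitory co-receptor of the B cell receptor, at 267, 243 and 146 CPM. The log2 ratios of Slpi over naive were 1.09 and 1.91 in YUMMER1.7 and YUMM1.7 stricter members, against 1.19 and 1.81 in other B cells. Those of Cd22 were 0.87 (0.52 to 1.22) and 0.73 (0.34 to 1.12), against 0.24 and 0.18 in other B cells, which were not filtered. In all members Cd22 stood at 162, 174 and 146 CPM. Atp5k and Atp5e, subunits of the mitochondrial ATP synthase, and Sec61g, a subunit of the protein channel of the endoplasmic reticulum, had ratios between 0.51 and 1.0, against values between 0.42 and 0.88 in other B cells.

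**Figure D5:**
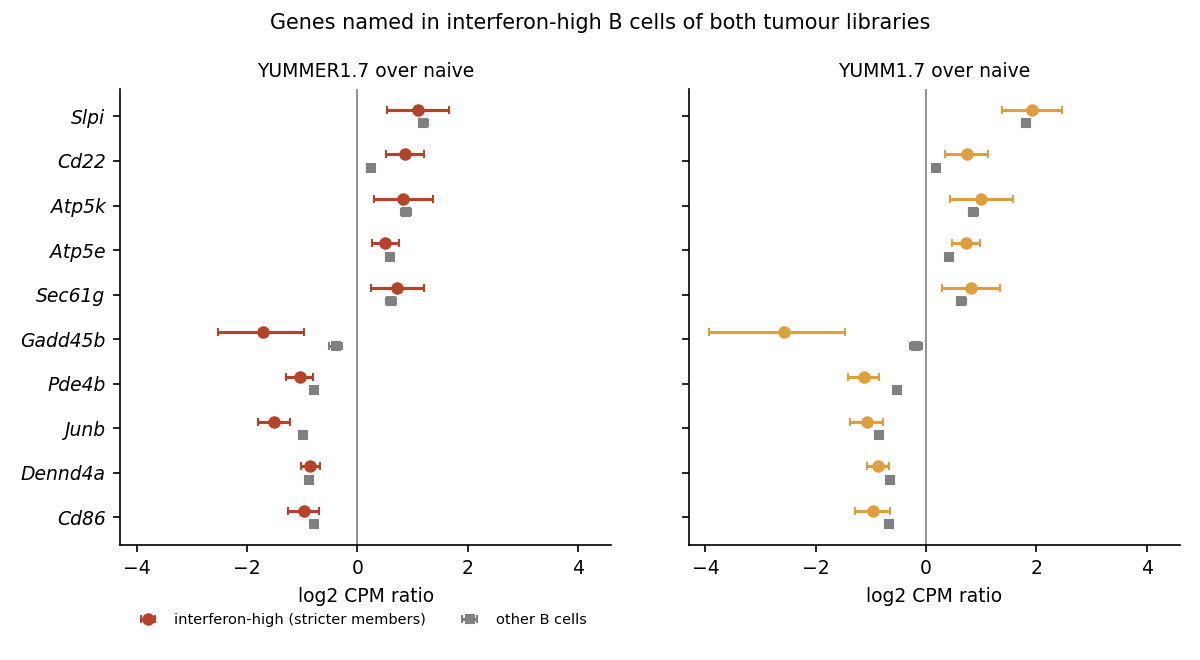
log2 ratio of CPM over the naive library for the genes named in stricter interferon-high B cells of both tumour libraries, YUMMER1.7 on the left and YUMM1.7 on the right; coloured points are stricter members, grey squares all other B cells without the filter, and bars 95% counting intervals. The grey squares of Slpi, Atp5k and Dennd4a lie within or at the edge of the members' intervals, whereas the points of Gadd45b and Cd22 lie farther from 0 than the grey squares.

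Between the tumour libraries, 1.31% of 3206 compared genes were at least 2 times and 0.905% at most 0.5 times in stricter members of YUMMER1.7 over YUMM1.7. Hspa1b and Hspa1a, near-identical heat shock genes whose reads may be split wrongly, were highest, with Hspa1b at 236, 57.2 and 104 CPM in stricter members of the YUMMER1.7, YUMM1.7 and naive libraries, against 186, 68.4 and 94.3 CPM in other B cells under the same filter. Gem, a small GTPase induced by stimulation, stood at 182, 57.2 and 143 CPM, and Hmgb2, a chromatin protein of cycling cells, at 322, 119 and 263 CPM. Fos, an AP-1 subunit, stood at 94.5, 31.0 and 67.8 CPM and rested on 56, 13 and 58 UMIs. Lowest were Trim30c, Slfn5, Ankrd28, Ifitm3 and Rsl1d1, of which Trim30c, Slfn5 and Ifitm3 are interferon-stimulated. The log2 ratio of Slfn5 was −0.95 (−1.20 to −0.71) in stricter members and 0.09 (−0.05 to 0.23) in other B cells without the filter. That of Trim30c was −1.42 (−2.12 to −0.75) and 0.05 (−0.33 to 0.44). These ratios are at full depth, where stricter members had medians of 5791.5 and 4043 UMIs in YUMMER1.7 and YUMM1.7. The effector list for this pair was −0.32 at full depth and −0.05 (−0.18 to 0.07) thinned to 2000 UMIs, and the part of depth in single genes was not tested.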

How the data were processed

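Single-cell 3′ RNA counts were measured in pooled lymph nodes, 1 library per arm and fraction. The deposited matrices hold raw UMI counts per gene and cell, made with Cell Ranger 7.0.0 for the CD45-depleted and 8.0.1 for the enriched fraction per the file headers; the submitters' processing notes name Cell Ranger 8.0.1 and mm10. Cells with at least 500 UMIs, 300 genes and at most 10% mitochondrial UMIs were kept. Members and gene lists were chosen with earlier results of these data known.

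UMIs were summed per library and cell group and scaled to CPM. Ratios carry exact conditional binomial intervals and shares Clopper-Pearson intervals, at 95%. PCR duplicates are removed by UMIs, and the intervals cover counting error only. A gene was compared at 50 or more UMIs over both groups in each library, and called at a ratio of at least 2, or at most 0.5, in all 3. The doublet caller Scrublet marked 0 cells of the depleted libraries by its automatic threshold (117, 146 and 314 cells of the enriched YUMMER1.7, YUMM1.7 and naive libraries), so the top 5% of scores in each library were treated as high. The computation was tested on simulated counts.

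Named genes are the 12 highest and 8 lowest by the interval bound nearest 0 over the 3 libraries, and the 5 highest and 5 lowest between arms, without genes of the gate, immunoglobulin, T cell receptor, mitochondrial, ribosomal, haemoglobin, sex-linked or unnamed genes. The same rule was applied to stricter members. Other genes are members of the lists, some chosen after their values were seen. Python 3.11.15, NumPy 2.4.6, SciPy 1.17.1, pandas 2.3.3, Scanpy 1.11.5 and matplotlib 3.10.9 were used.

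Some items are not reported here.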

Additional observations from a re-analysis of the deposited data

How the results depend on the processing

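Each arm is 1 library, so no spread between mice is known and no replicate could be left out. No paired analysis between arms was possible because each arm has a single library, whereas members and other B cells were compared within each library. Values below are for YUMMER1.7, YUMM1.7 and naive in that order, and causes of the changes were not tested. The shares were 1.40%, 1.51% and 1.30% with cells thinned to 2000 UMIs, 1.45%, 1.55% and 1.24% thinned in stricter members, 2.85%, 2.20% and 1.90% with all cells of other-lineage markers left out, and 2.58%, 1.76% and 1.63% for at least 4 of 6 genes, and 4.15% in stricter cells of YUMMER1.7.

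The log2 ratio of antiviral effectors over other B cells was 1.51, 1.74 and 1.89 thinned, 1.54, 1.71 and 1.88 thinned in stricter members, 1.27, 1.68 and 1.58 without other-lineage cells, 1.13, 1.38 and 1.52 for at least 4 of 6 genes, 1.15, 1.29 and 1.30 against depth-matched cells, and 1.09, 1.53 and 1.42 in stricter members. It was 1.28 and 1.31 without high doublet scores in YUMM1.7 and naive, and 0.90 and 1.17 when scaled without immunoglobulin, mitochondrial and ribosomal protein genes in YUMMER1.7 and YUMM1.7. Every one stayed above 0.

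Between arms, YUMMER1.7 over naive was −0.28 thinned, −0.21 without other-lineage cells, −0.33 for at least 4 of 6 genes and −0.29 without the most abundant gene. YUMM1.7 over naive was −0.18 thinned, −0.20 thinned in stricter members, −0.19 for at least 4 of 6 genes, and turned to 0.012 without other-lineage cells and 0.051 in stricter members. YUMMER1.7 over YUMM1.7 was −0.10 thinned, −0.053 thinned in stricter members, −0.23 without other-lineage cells and −0.32 in stricter members. Of genes called higher, 145 became 90 thinned in stricter members, 72 without other-lineage cells, 86 against depth-matched cells, 218 at 20 UMIs and 429 with no filter. Of genes called lower, 19 became 106 thinned, 99 thinned in stricter members, 58 for at least 4 of 6 genes, 4 against depth-matched cells, 54 at 20 UMIs and 2262 with no filter. The other 41 values moved by less than their interval or by under 1.5 times.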

Other observations

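The same gate was applied to the fraction enriched with CD11b and CD11c beads, whose libraries had no part in choosing the members. It held 57 of 631 B cells (9.03%) in the YUMMER1.7, 25 of 387 (6.46%) in the YUMM1.7 and 38 of 647 (5.87%) in the naive library. Of these cells 45.6%, 44.0% and 39.5% had high doublet scores, against 3.83%, 5.80% and 6.57% of other B cells. A UMI of monocyte and macrophage markers was held by 82.5%, 96.0% and 78.9% of them, at median depths of 15878, 16077 and 7647.5 UMIs, against 67.1%, 71.5% and 58.9% of other B cells, at 4923.5, 5033.5 and 4113 UMIs. At least 10 UMIs of these markers were held by 49.1%, 32.0% and 42.1% of them, against 4.01%, 4.42% and 7.22% of other B cells. Neutrophil markers summed to 8291, 757 and 2053 CPM, against 416, 94.7 and 1173 CPM, and 1 YUMMER1.7 cell alone held 3263 of the UMIs. Stromal markers went the other way, at 200, 255 and 258 CPM, against 308, 319 and 381 CPM. After the filter on other leukocytes and doublet scores 8, 1 and 7 cells were left. The antiviral effectors of all cells in the gate had log2 ratios over other B cells of 0.95, 1.23 and 1.03. The part of mixed droplets in these values was not tested.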
